A study of Mus musculus with 6 samples.

Results

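The regions described here are the 1000 sites with the strongest accessibility signal in control hepatocyte nuclei. Accessibility was measured by ATAC-seq, in which the transposase Tn5 inserts sequencing adapters into DNA that is not covered by nucleosomes. Peaks of the 6 libraries on chromosomes 1 to 19 and X of the mouse build mm10 were merged where they shared 1 bp or more, which gave 109853 regions. Of these, 51749 held a peak in all 6 libraries and are called shared regions. The 1000 shared regions with the highest mean normalized tag count over the 3 control libraries were taken as members, so they were chosen by their control values. The dKO libraries (n = 3) came from male mice homozygous for floxed alleles of Ncor1 and of another gene that were given AAV-Cre, and the control libraries (n = 3) from males with the same floxed alleles that were given AAV-eGFP. Livers of both groups were taken 5 days after the virus at zeitgeber time 10. HNF4a-positive nuclei were sorted from them. The labels name neither the promoter that drives Cre nor the animals behind each library, so the spread between libraries may be technical in part, and the share of nuclei that recombined is not given.

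Strongly open sites in most tissues are the nucleosome-free stretches at the starts of genes that every cell uses, together with a smaller number of tissue enhancers. Such starts are often rich in CpG and are kept open by factors such as SP/KLF, ETS and NFY. NCOR1 is a corepressor that carries the deacetylase HDAC3 to nuclear receptors on chromatin, and in liver it restrains lipid and metabolic genes. The study asks how such corepressors act together with the glucocorticoid receptor on gluconeogenesis, the making of glucose by the liver.

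The members had control means of 72.23 to 350.3 normalized tags, with a median of 82.63, while the median over all shared regions was 16.17. These are the values the members were selected on and are a description. Only 161 members lay above 100 and 8 above 150. The last 3 regions inside the threshold, at Smarca4, Ankrd24 and Usp28, had control means of 72.27, 72.27 and 72.23, and the first 3 outside it, at Aox1, Ahctf1 and Plin4, had 72.17 each, so the threshold falls in a continuous distribution. When the ranking left out 1 control library, 917 members were kept without control 1, 953 without control 2 and 945 without control 3.

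The hepatocyte markers Alb and Hnf4a each had a member linked to them, while Apoa1, Ttr, Serpina1a and Cps1, which also mark hepatocytes, had none. None of the 33 markers of 7 other liver cell types had a member. The strongest shared region at any of these was at Stab2, a sinusoidal endothelial gene, with a control mean of 48.0. Few shared regions were linked to these lists, from 1 for T and NK cells to 23 for sinusoidal endothelium. Over all shared regions 1.93% were members, so the lack of a member at these markers says little.

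A promoter window of 300 bases, 250 before to 50 after a gene start of the RefSeq table (build GRCm38.p6, the same assembly as mm10), shared at least 1 base with 600 of the 1000 members. The sequences below are those of the 4 such members with the highest control mean, which show what a maximally open start looks like, of the 2 with promoter windows among the 10 members with the lowest log2 fold change in dKO of those called lower with no overlap between groups after centring, and of 3 members described further on (Fbp1, Mdh1 and Ccser2), which were added after their values were seen. Each is given 5′ to 3′ on the strand of its gene. Capitals mark every match to one of the 15 motifs listed after them.

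Hjurp, chr1:88277530-88277829, minus strand: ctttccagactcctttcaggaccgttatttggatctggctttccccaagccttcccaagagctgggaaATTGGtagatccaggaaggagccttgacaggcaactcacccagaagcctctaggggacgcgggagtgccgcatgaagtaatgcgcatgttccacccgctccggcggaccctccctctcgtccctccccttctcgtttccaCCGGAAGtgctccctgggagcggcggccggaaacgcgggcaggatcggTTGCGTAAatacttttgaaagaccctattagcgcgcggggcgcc

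Prkra, chr2:76647978-76648277, minus strand: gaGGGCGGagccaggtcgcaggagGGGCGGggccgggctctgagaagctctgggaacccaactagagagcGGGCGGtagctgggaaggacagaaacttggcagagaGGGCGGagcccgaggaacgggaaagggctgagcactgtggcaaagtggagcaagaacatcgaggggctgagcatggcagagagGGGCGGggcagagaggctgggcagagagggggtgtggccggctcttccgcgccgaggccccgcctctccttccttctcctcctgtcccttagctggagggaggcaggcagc

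Zpr1, chr9:46272814-46273113, plus strand: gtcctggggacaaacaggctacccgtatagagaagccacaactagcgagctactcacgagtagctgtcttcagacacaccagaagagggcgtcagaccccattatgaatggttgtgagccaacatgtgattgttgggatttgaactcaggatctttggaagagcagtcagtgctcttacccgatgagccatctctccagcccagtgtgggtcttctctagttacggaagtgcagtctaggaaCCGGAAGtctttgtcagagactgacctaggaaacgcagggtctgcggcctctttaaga

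Gna11, chr10:81545113-81545412, minus strand: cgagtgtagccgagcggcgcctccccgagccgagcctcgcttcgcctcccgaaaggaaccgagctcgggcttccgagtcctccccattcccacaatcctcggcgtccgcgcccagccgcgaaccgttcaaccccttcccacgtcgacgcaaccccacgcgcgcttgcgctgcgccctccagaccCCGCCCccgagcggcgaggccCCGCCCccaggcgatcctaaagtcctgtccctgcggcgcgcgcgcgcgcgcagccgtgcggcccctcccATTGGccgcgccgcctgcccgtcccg

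Adgrf1, chr17:43270097-43270396, plus strand: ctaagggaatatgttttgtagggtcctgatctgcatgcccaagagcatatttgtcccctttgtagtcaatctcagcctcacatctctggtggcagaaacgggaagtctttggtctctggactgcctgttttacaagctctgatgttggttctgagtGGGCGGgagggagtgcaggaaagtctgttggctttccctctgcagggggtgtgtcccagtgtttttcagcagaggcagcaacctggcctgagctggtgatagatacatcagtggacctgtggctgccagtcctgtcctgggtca

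Etnk2, chr1:133363322-133363621, plus strand: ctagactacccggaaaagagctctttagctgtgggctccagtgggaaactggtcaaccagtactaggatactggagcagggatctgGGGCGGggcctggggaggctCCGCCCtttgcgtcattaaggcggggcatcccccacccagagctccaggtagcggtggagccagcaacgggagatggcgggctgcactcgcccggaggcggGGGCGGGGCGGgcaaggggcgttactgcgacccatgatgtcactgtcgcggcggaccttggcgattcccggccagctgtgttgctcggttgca

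Fbp1, chr13:62888233-62888532, minus strand: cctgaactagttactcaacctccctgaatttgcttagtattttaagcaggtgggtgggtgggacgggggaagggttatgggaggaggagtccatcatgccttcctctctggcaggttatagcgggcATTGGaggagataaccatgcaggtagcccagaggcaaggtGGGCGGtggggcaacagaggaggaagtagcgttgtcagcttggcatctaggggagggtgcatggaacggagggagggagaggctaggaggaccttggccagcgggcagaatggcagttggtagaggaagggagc

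Mdh1, chr11:21571885-21572184, minus strand: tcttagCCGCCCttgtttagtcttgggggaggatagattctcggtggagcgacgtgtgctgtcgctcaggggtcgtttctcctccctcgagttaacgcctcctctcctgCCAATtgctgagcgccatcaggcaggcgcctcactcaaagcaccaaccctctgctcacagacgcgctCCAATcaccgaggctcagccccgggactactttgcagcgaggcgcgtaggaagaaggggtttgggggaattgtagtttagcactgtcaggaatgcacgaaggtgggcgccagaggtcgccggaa

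Ccser2, chr14:36968715-36969014, minus strand: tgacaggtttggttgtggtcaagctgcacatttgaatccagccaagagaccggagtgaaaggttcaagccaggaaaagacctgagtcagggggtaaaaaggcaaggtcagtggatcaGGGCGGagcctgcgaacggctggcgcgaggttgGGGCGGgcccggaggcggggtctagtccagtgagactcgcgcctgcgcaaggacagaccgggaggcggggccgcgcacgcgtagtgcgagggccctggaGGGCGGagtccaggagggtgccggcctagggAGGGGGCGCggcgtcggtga

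The Prkra start, of a gene for an activator of the kinase PKR, held 5 copies of GGGCGG, and that of Gna11, a G protein subunit gene, held 2 copies on its minus strand, with 48 CpG dinucleotides in 300 bases. The starts of Hjurp, which encodes the chaperone of the centromeric histone, and of Zpr1, a zinc finger gene, each held 1 ETS match. CpG numbered 22 at Hjurp, 16 at Prkra and 9 at Zpr1, where the GC content was 51.3%. The Adgrf1 window had 2 CpG, 1 GGGCGG and 52.7% GC, and that of Fbp1 had 6 CpG, 1 GGGCGG and 57.3% GC. Etnk2 had 21 CpG and 4 GGGCGG matches, 2 of which overlap by 1 base.

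Over the 600 windows with a member, the median GC content was 67.0% and the median number of CpG was 27, against 61.0% and 21 in the 7523 windows under other shared regions and 53.0% and 7 in all 32619 windows. The SP/KLF motif (GGGCGG, searched on both strands like all others) lay in 84.2% of member windows, in 65.7% of those under other shared regions and in 35.9% of all. For the ETS motif (CCGGAAG) the shares were 19.2%, 19% and 8.92%. CCAAT, the box bound by NFY, was in 29.0% of member windows, 38.4% of those under other shared regions and 37.6% of all. TATAAA was in 1.0%, 6.86% and 13.7%. Apart from C/EBP, motifs of liver factors were in few member windows. CAAAGTCCA, a form of the HNF4A site, was in 0 member windows, 0.625% of those under other shared regions and 0.478% of all. In the same order, GTTAATNAT (HNF1) was in 0.5%, 0.824% and 0.806%, and TGTTTAC (FOXA) in 1.5%, 3.07% and 3.67%. TTNNGCAA (C/EBP) was in 6.5%, 8.41% and 10.9%, and GGTCAAAGG (nuclear receptor direct repeat) in 0.5%, 0.346% and 0.346%. ACANNNTGT, the core of the glucocorticoid response element, was in 1.67%, 4.03% and 6.89%. GCGCATGCG (NRF1) was in 4.17%, 3.85% and 1.75%, and AAGATGGCG (YY1) in 3.83%, 3.02% and 1.4%. TGACGTCA (CRE) was in 1.83%, 3.23% and 1.8%, and AGGGGGCGC (CTCF) in 2.33%, 2.46% and 1.25%. CACGTG (E-box) was in 8.67%, 10.3% and 7.2%. A match is a description of the letters in the window. Motifs can overlap, and the shares follow base composition, which differs between the sets.

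The members sat at gene ends far more often than other open sites. Of the 1000, 746 (74.6%) lay within 1 kb of either end of a protein-coding gene, 186 (18.6%) inside a gene away from its ends, 51 (5.1%) outside genes within 50 kb, and 17 (1.7%) farther out. Among the 50749 shared regions that were not members, the shares were 21.2%, 43.8%, 24.1% and 11%. The next 1000 regions by control mean lay between, with 65.1% at gene ends. The members were linked to 950 genes, of which 30 had 2 or more, and 140 members had another member within 50 kb. Whether a region lies in an exon, an intron or a UTR was not analysed here.

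**Figure D1:**
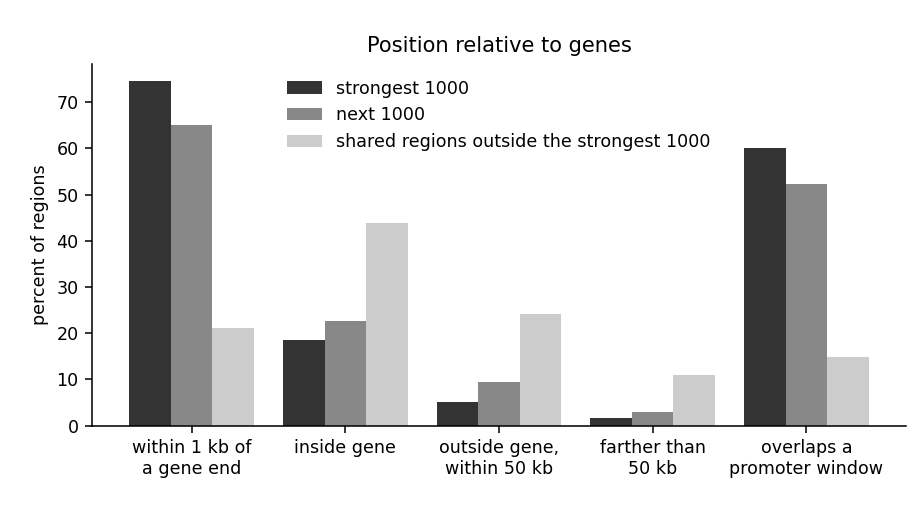
Percent of regions in each position class (y axis) for the strongest 1000 regions, the next 1000 by control mean and the shared regions outside the strongest 1000; the first 4 classes add to 100%, and the last, overlap with a promoter window, was counted separately. The strongest 1000 reach 74.6% at gene ends and 60.0% in promoter windows, against 21.2% and 14.8% for the rest.

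The highest values of all belonged to a few sites that are not gene starts. How reads from repeated sequence were handled is not given, so whether tags at such sites measure accessibility alone was not tested. The region ranked 1, at chromosome 17, 39846715 to 39846954, lies in Rn18s-rs5, a sequence related to 18S ribosomal RNA, and had 337.1, 334.0 and 528.1 normalized tags in dKO against 217.5, 361.9 and 471.5 in control. A region near the end of Lars2, the mitochondrial leucyl-tRNA synthetase gene, at chromosome 9, 123461930 to 123462104, had 273.2, 253.0 and 402.5 in dKO and 176.8, 301.3 and 383.2 in control. The groups overlapped at both, and at both the values ran lowest in control 1 and highest in dKO 3. Control 1 was also the lowest and dKO 3 the highest library at the regions ranked 3, at chromosome 3, 5860399 to 5860594, with no coding gene within 50 kb, 4 (inside Zc3h7a) and 7 (inside Gphn, the gephyrin gene), and none of these 5 was called in the comparison of dKO with control, though Zc3h7a and Gphn were called higher under cyclic loess (0.45 each) and when libraries were centred on the members (0.46 and 0.45). Hjurp held ranks 5 and 8. Brpf1, a gene of histone acetyltransferase complexes, held rank 10 with 102.5, 113.1 and 158.9 in dKO and 138.6, 150.5 and 152.3 in control, and its groups overlapped.

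Chromosomes 19 and X gave almost no members. Chromosome 19 had 2 members among 1382 shared regions (0.145%) and chromosome X 1 among 1079 (0.0927%), while the other chromosomes gave 1.18% to 2.75% and all together 1.93%. Shared regions were weaker on these chromosomes in every library. On chromosome 19 the median normalized tag count was 0.835, 0.788 and 0.838 of that on chromosomes 1 to 18 in dKO, against 0.827, 0.817 and 0.797 in control. On X the ratios were 0.684, 0.706 and 0.682 in dKO, against 0.728, 0.732 and 0.745 in control. Male cells carry a single X, whereas chromosome 19 is an autosome, and the 2 ratios stood apart in every library.

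**Figure D2:**
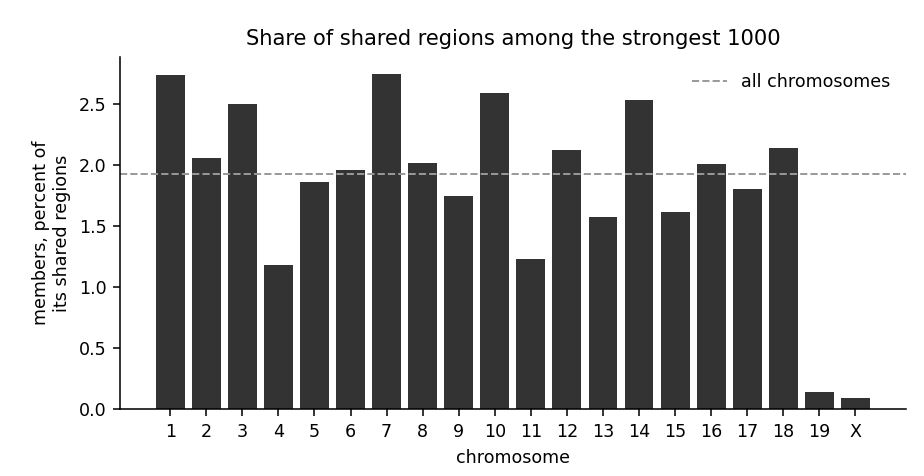
Members as a percent of each chromosome's shared regions (y axis, bars) by chromosome (x axis), with the value over all chromosomes as a dashed line (1.93%). Chromosomes 19 (0.145%) and X (0.0927%) stand far below the lowest of the others, chromosome 4 (1.18%).

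Across libraries, the members were weaker in dKO 1 and dKO 2 and as strong in dKO 3 as in the controls. The median over members was 64.4, 62.05 and 86.65 normalized tags in dKO 1, 2 and 3, against 85.55, 81.3 and 82.5 in control 1, 2 and 3 (71.0 ± 13.6 for dKO against 83.1 ± 2.19 for control; mean and SD of 3 libraries a group). Set against each library's own median over shared regions, the members were 4.13, 4.6 and 4.98 times as strong in dKO and 5.35, 5.05 and 5.06 times in control, so on this scale the groups did not overlap, with dKO 3 next to the controls. The members held 6.75%, 7.28% and 7.71% of the summed tags of the shared regions in dKO and 7.81%, 7.72% and 7.8% in control. Since the control values chose the members, a lower value in dKO is favoured by the choice and these differences were not tested. In sorted nuclei measured in bulk, a lower signal in every nucleus and a loss of signal in some of the nuclei cannot be told apart.

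**Figure D3:**
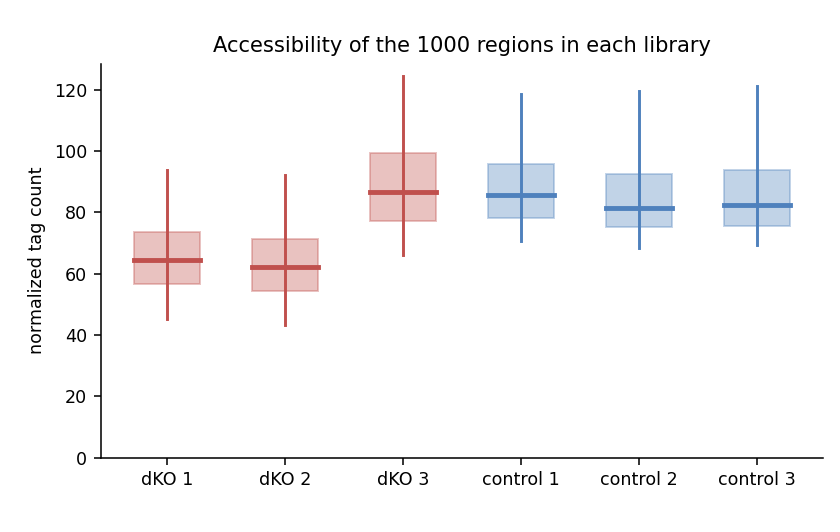
Normalized tag counts of the 1000 members (y axis, linear) in each library, dKO in red and control in blue; the thick line is the median, the box spans the 25th to 75th and the thin line the 5th to 95th percentile over members. The medians of dKO 1 and dKO 2 (64.4 and 62.05) lie below the others, and that of dKO 3 (86.65) is level with the controls.

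In normalized tags before centring, the spread between libraries at the members was narrow in control and wider in dKO. The highest control library exceeded the lowest by a median of 1.12 times, and by more than 1.5 times at 20 members. In dKO the median was 1.43 times and 312 members exceeded 1.5 times. Differences in scale between whole libraries enter these ratios. The median over all shared regions ran from 13.5 in dKO 2 to 17.4 in dKO 3, and differed less between the controls. Whether the wider spread in dKO is particular to the members was not tested. After centring, dKO 3 was the highest dKO library at 819 members. It lay below every control at 420 members, inside the control range at 396 and above every control at 184. In contrast, dKO 1 lay below every control at 908 members and dKO 2 at 728.

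For fold changes, log2(value + 1) was centred on each library's median over shared regions and fitted across all 51749 of them by limma, with Benjamini-Hochberg adjustment and a threshold of 0.05. Values are dKO minus control. The median over members was -0.19, against -0.02 over all shared regions, and 897 of 1000 members were negative. Of the members, 163 (16.3%) were called lower and 3 (0.3%) higher. Over all shared regions 11.6% were called lower, 8.19% higher and 19.8% either way. The dKO libraries lay below all controls at 392 members (39.2%), where the share over all shared regions was 20.6%, and above all at 13, where it was 17.5%. The calls use the same control values as the ranking, so nothing is read from these counts about the members.

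The size of this difference depended on the ranking and on the scaling. Ranked by the dKO libraries instead, the top 1000 had a median of -0.12 with 43 called lower and 21 higher, and 795 of the members were in that list, which is 79.5% of each list. When the members were ranked on 2 control libraries and the dKO libraries were set against the third, which took no part in the choice, the median was -0.23 against control 1, -0.17 against control 2 and -0.16 against control 3, with 862, 867 and 843 of 1000 regions negative. The next 1000 regions had a median of -0.23 and 26.0% called lower. Quantile normalization brought the members' median to -0.03 and cyclic loess to -0.003, with 94 and 81 members called lower and 40 and 55 higher. Over all shared regions these scalings called 8.86% and 8.91% lower and 8.64% and 8.35% higher. Under both, the members' share called lower was near that of all shared regions, and their share called higher was below it. Both scalings even out differences between libraries that depend on signal level, so a smaller shift at the strongest regions is favoured by the method. The fit has no term for peak width. With such a term the median was -0.17, and 130 members were called lower and 3 higher, against 11.5% and 8.27% of all shared regions. Within the libraries with 108 bp peaks (dKO 1, dKO 2 and control 1) the median was -0.32, and within those with 166 or 172 bp peaks (dKO 3, control 2 and control 3) it was -0.03. Without dKO 3 the fit called 416 members lower, without dKO 1 it called 54 and without dKO 2 it called 26, while it called 15.7%, 3.98% and 2.71% of all shared regions lower. Without control 1, control 2 or control 3 it called 79, 96 and 92, and 8.03%, 9.16% and 8.62% of all shared regions.

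**Figure D4:**
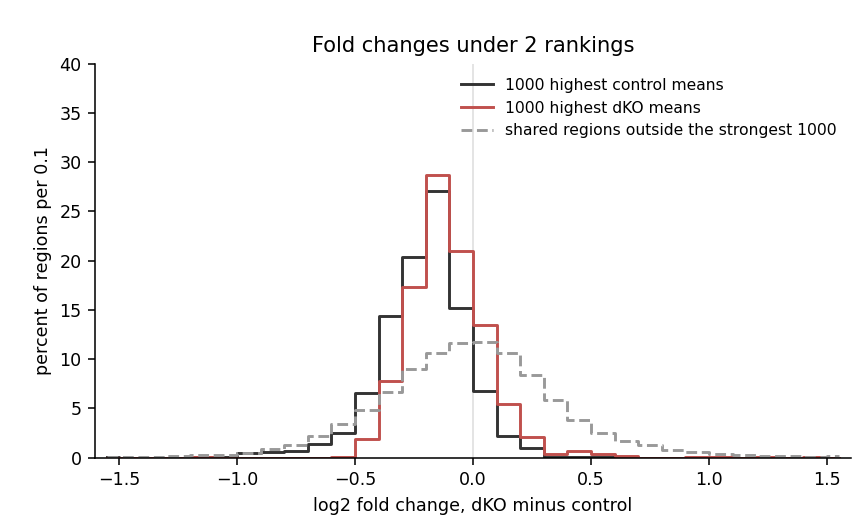
Percent of regions (y axis) per 0.1 of log2 fold change, dKO minus control (x axis; values past the ends are in the end bins), for the 1000 regions with the highest control means, the 1000 with the highest dKO means and the shared regions outside the strongest 1000. Both top lists are narrow and lie mostly below 0, with medians of -0.19 and -0.12, and the rest is centred near 0 (median -0.01) and wider.

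By position, 89 of 746 members at gene ends (11.9%) were called lower and 1 higher, with a median of -0.18. Away from gene ends 74 of 254 (29.1%) were called lower and 2 higher, with a median of -0.24. Over all shared regions, the shares called lower were 10.5% at gene ends and 11.9% away from them, and those called higher 2.76% and 9.74%. Among the promoter windows, the 74 under members called lower had a median of 22 CpG, with CCAAT in 48.6% and TTNNGCAA in 14.9% (11 windows). The 526 under other members had 28 CpG and these motifs in 26.2% and 5.32%. These motifs had the largest rise of the 15 searched. Others went the other way, among them CACGTG with 4.05% against 9.32% and GGGCGG with 79.7% against 84.8%. Both sets of windows were formed from the calls, which share the control values with the ranking, and were not tested.

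The 3 members called higher lay at Sfi1, Ftl1 and Myl12b, and none overlapped a promoter window. Sfi1 encodes a spindle pole protein. Its member at chromosome 11, 3161322 to 3161516, inside the gene, had 239.2, 182.1 and 221.6 normalized tags in dKO, against 146.4, 157.2 and 145.0 in control. All 3 dKO libraries lay above all controls, and the log2 fold change was 0.57 (SE 0.11), with 0.64 among the 108 bp libraries and 0.45 among the wider ones. The call was lost only without centring (0.51) among the 16 alternatives fitted to each named member. The member 639 bp from Ftl1, the ferritin light chain gene, had 98.5, 93.4 and 119.8 in dKO and 70.1, 101.3 and 71.8 in control (log2 fold change 0.43, SE 0.14). In normalized tags its groups overlapped through control 2, and the call was lost without dKO 1 (0.47), dKO 2 (0.41), dKO 3 (0.40), control 1 (0.34) or control 3 (0.34), and also without centring (0.37) and with a pseudocount of 5 (0.40). The member 10208 bp from Myl12b, a myosin light chain gene, had 95, 94.3 and 104.0 in dKO and 69.2, 76.8 and 92.2 in control (0.37, SE 0.12), and lost its call without dKO 1 (0.39), dKO 2 (0.30), control 1 (0.28) or control 2 (0.35), and also without centring (0.30), with a pseudocount of 5 (0.34), with summed peaks (0.37) and with a replicate block (0.37).

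Among the members that fell, the lowest fold change was at the start of Adgrf1, an adhesion G protein-coupled receptor gene, whose sequence is given above. The region, at chromosome 17, 43270292 to 43270484, had 15.6, 16.4 and 54.7 normalized tags in dKO and 71.0, 52.7 and 107.9 in control. Its log2 fold change was -1.51 (SE 0.32), and its rank was 10499 by dKO mean, the lowest of any member, against 712 by control mean. In tags dKO 3 exceeded control 2, and the call was lost without dKO 2 (-1.33). The member 10664 bp from Hjurp, at chromosome 1, 88288205 to 88288412, had 49.4, 47.7 and 121.0 in dKO and 129.6, 161.3 and 165.8 in control (-1.13, SE 0.22). All dKO values were below all control values there. Inside Khk, the gene of ketohexokinase, which starts fructose use, the region at chromosome 5, 30925252 to 30925536, had 37.1, 29.0 and 50 in dKO and 86.6, 95.8 and 69.3 in control (-1.06, SE 0.14), again without overlap, with -1.24 among the 108 bp libraries and -0.79 among the wider ones.

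F10, which encodes coagulation factor X, had a member 889 bp away with 27.2, 30.8 and 62.0 normalized tags in dKO and 83.8, 69.8 and 77.8 in control (-0.96, SE 0.19). The groups did not overlap there and dKO 3 lay between the other dKO libraries and the controls. Members inside Arhgef26 (-0.96, SE 0.19) and Ttc39c (-0.96, SE 0.14), 13892 bp from Poc1a (-0.90, SE 0.17), a centriole protein gene, and near ends of Etnk2 (-0.83, SE 0.23), an ethanolamine kinase gene, and Cabyr (-0.81, SE 0.20) were also among the 10 lowest called members without overlap after centring. At Etnk2 the dKO values were 38.6, 41.7 and 103.9 and the control values 96.0, 112.3 and 102.3, so dKO 3 lay within the control range in tags, and the call was lost without dKO 1 (-0.57), dKO 2 (-0.72) or control 1 (-0.88). The Cabyr call was lost without dKO 1 (-0.58) or dKO 2 (-0.75). These members were picked for their fold change among calls with no overlap after centring, so their size is a description.

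The 6 called members whose groups lay farthest apart relative to the range within a group had smaller changes. At the start of Mdh1, the cytosolic malate dehydrogenase gene, at chromosome 11, 21571817 to 21572009, values were 72.7, 62.8 and 85.2 in dKO and 100.2, 99.5 and 100.6 in control (log2 fold change -0.39, SE 0.10). The controls there agreed within about 1 tag and every dKO library was lower. Ccser2 had 49.7, 47.0 and 67.2 in dKO and 86.3, 88.4 and 89.7 in control (-0.64, SE 0.11), but -0.32 and no call where a region's value was the sum of its peaks. E2f3, a cell cycle factor gene, had 43.7, 43.1 and 53.4 in dKO and 79.1, 69.1 and 69.5 in control (-0.57, SE 0.11). The others were Acot12 (-0.47), an acetyl-CoA thioesterase gene, Ank2 (-0.44), an ankyrin gene, and Ctnna2 (-0.34), a catenin gene. Calls were lost without dKO 2 at Mdh1 (-0.37), Acot12 (-0.45), Ank2 (-0.46) and Ctnna2 (-0.36), at Mdh1 also without control 2 or control 3 (-0.39 each), and at Ctnna2 also without dKO 1 (-0.31), control 2 (-0.33) or control 3 (-0.34). The Mdh1 call was also lost under cyclic loess (-0.20) and without centring (-0.45), and the Ank2 call without centring (-0.50). At Ctnna2 it was also lost under quantile normalization (-0.17), cyclic loess (-0.15), no centring (-0.41), a minimum mean of 20 (-0.20), centring on the members (-0.17) and a replicate block (-0.34).

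**Figure D5:**
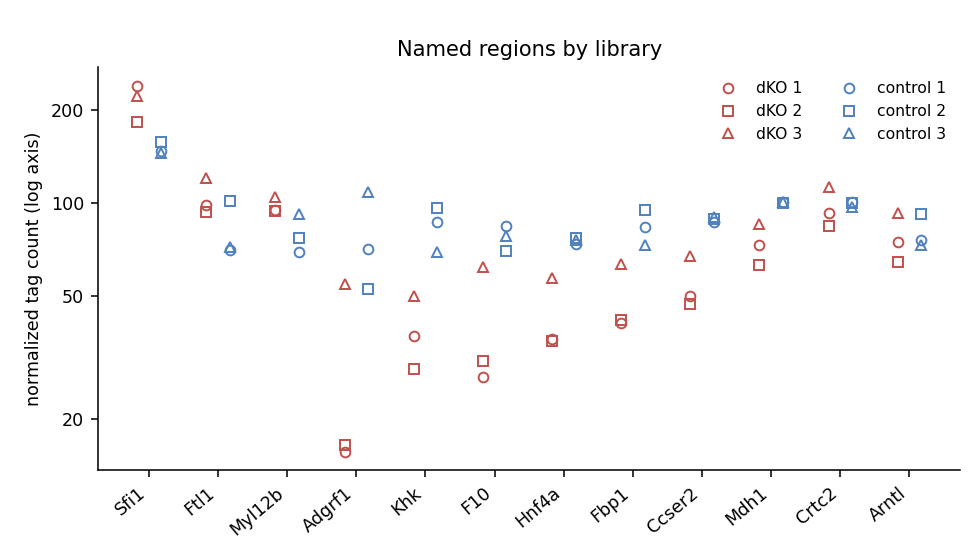
Normalized tag counts (y axis, log scale) of named members in the 3 dKO libraries (red, left) and the 3 control libraries (blue, right); the symbol gives the replicate. Sfi1 is higher in every dKO library, Khk, F10, Hnf4a, Fbp1, Ccser2 and Mdh1 are lower in every dKO library, and Crtc2 and Arntl overlap.

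Of the 20 gluconeogenesis genes, 7 had a member, of which 2 were called lower, 0 higher and 5 not called, with a median of -0.26 over the 7. Of all 94 shared regions linked to the list 33 were called lower and 7 higher, where 11.6% and 8.19% of all shared regions were. Fbp1, which encodes fructose-1,6-bisphosphatase, had its member over the gene start, at chromosome 13, 62888142 to 62888344. It had 40.8, 41.6 and 63.1 normalized tags in dKO and 83.5, 94.8 and 72.7 in control (log2 fold change -0.73, SE 0.14), without overlap, and kept its call in all 16 alternatives. Mdh1, above, was the other. Crtc2, the coactivator of CREB, had 92.3, 84.2 and 112.6 in dKO and 100.6, 99.6 and 96.7 in control (0.01, SE 0.10), with overlapping groups, and was called higher under cyclic loess (0.20) and when libraries were centred on the members (0.19). Creb1 (-0.08), Gpt2 (-0.09), an alanine aminotransferase gene named here to complete the list, and Slc37a4 (-0.26), the glucose-6-phosphate transporter gene, were not called, though Slc37a4 was called lower without dKO 3 (-0.32). Tat, which encodes tyrosine aminotransferase and is a classical glucocorticoid target, had a member 387 bp from the gene with 34.7, 57.2 and 72.5 in dKO and 87.6, 143.4 and 52.1 in control (-0.66, SE 0.29). It had the widest control range of all members, 2.75 times, its groups overlapped through control 3, and it was called lower without control 3 (-1.03) and with a replicate block (-0.66). Pck1 and G6pc had no member.

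Of the 20 hepatocyte transcription factor genes, 4 had a member, of which 3 were called lower and 0 higher. Of all 98 shared regions linked to the list 21 were called lower and 3 higher, where 11.6% and 8.19% of all shared regions were. The member inside Hnf4a, which encodes the factor used to sort the nuclei, at chromosome 2, 163540757 to 163540979, had 36.1, 35.6 and 57.0 normalized tags in dKO and 73.5, 76.9 and 75.6 in control (-0.77, SE 0.13). The groups did not overlap and the call held in all 16 alternatives. Nr1i2, the gene of the xenobiotic receptor PXR, had 46.0, 40.7 and 71.4 in dKO and 70.3, 79.1 and 76.2 in control (-0.48, SE 0.13), and Foxa3, a forkhead factor gene, had 42.9, 43.6 and 81.8 in dKO and 100, 74.0 and 72.9 in control (-0.54, SE 0.18). In tags dKO 3 lay within the control range at both. The Nr1i2 call was lost without dKO 1 (-0.40), dKO 2 (-0.41), control 2 (-0.45) or control 3 (-0.48), and the Foxa3 call without dKO 1 (-0.37), dKO 2 (-0.48) or control 1 (-0.38). Both calls were also lost under quantile normalization (-0.31 at Nr1i2 and -0.38 at Foxa3), cyclic loess (-0.30 and -0.35) and no centring (-0.55 and -0.60), and that of Foxa3 with a minimum mean of 20 (-0.39), summed peaks (-0.54), a peak width term (-0.50) and centring on the members (-0.36). At Foxa3 the 108 bp libraries gave -1.06 and the wider ones 0.06. Ppara, the receptor of fatty acids, was -0.33 (SE 0.14) and not called, but called without dKO 3 (-0.47).

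Among 22 plasma protein genes, Alb, Ahsg and Fga had a member and none was called. Of all 50 shared regions linked to the list 21 were called lower and 4 higher, where 11.6% and 8.19% of all shared regions were. The Alb member, 896 bp from the albumin gene, had 53.8, 70.9 and 115.5 normalized tags in dKO and 73.7, 155.0 and 135.6 in control (-0.54, SE 0.25), with overlapping groups, and it was called lower without control 1 (-0.85), without dKO 3 (-0.75) and with a replicate block (-0.54). Ahsg, the fetuin gene, was -0.33 and was called without dKO 3 (-0.38), and Fga, a fibrinogen gene, was -0.29 and was called without control 2 (-0.50). Among 19 clock genes, Nr1d2, the REV-ERB beta gene, had 2 members and Arntl, the BMAL1 gene, 1, and none was called. Of all 119 shared regions linked to that list 16 were called lower and 19 higher. The Nr1d2 member 151 bp from the gene had 89.7, 84.5 and 126.4 in dKO and 122.9, 126.6 and 127.4 in control (-0.29, SE 0.11), and it was called lower without dKO 3 (-0.38). Arntl was at -0.004 (SE 0.12), with overlapping groups. Klf10, an early response factor gene, had 2 members. The one inside the gene was at -0.31 and was called only without dKO 3 (-0.41). That at chromosome 15, 38300909 to 38301178, was called lower, with 55.0, 62.0 and 83.0 in dKO and 88.6, 89.3 and 88.2 in control (-0.37, SE 0.12). That call did not hold in 13 of 16 alternatives, among them every one that left out a library except dKO 3, with fold changes of -0.23 without dKO 1, -0.42 without dKO 2, -0.36 without control 1, -0.36 without control 2 and -0.38 without control 3.

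Of the glucocorticoid receptor and its targets, 1 of 20 genes had a member, Gadd45a, a stress response gene, at -0.37 (SE 0.13). It was not called with all libraries and was called without dKO 3 (-0.53). Of all 94 shared regions linked to that list 18 were called lower and 12 higher. Of 24 lipid and sterol genes, Acaca (-0.25), the acetyl-CoA carboxylase gene, and Insig2 (0.16), a sterol sensor gene, had a member and were not called, though Acaca was called lower without dKO 3 (-0.34). Of all 105 shared regions linked to that list 20 were called lower and 12 higher. Ribosomal protein, splicing and respiratory chain genes, which every cell uses, had 1 member each, Rps19 (-0.19), Hnrnpa2b1 (-0.10) and Cycs (0.04), and none was called, though Cycs was called higher under cyclic loess (0.23). Of the 31, 47 and 30 shared regions of these lists 2, 2 and 4 were called lower and 4, 5 and 0 higher. No member was linked to the 20 amino acid and urea cycle genes, the 18 cytochrome P450 and bile acid genes or the 10 genes of the NCOR complex list. These lists had 54, 59 and 59 shared regions, and 1.93% of all shared regions were members. Of these regions 27, 13 and 3 were called lower and 1, 5 and 11 higher. Over all shared regions 11.6% were called lower and 8.19% higher. The strongest shared region of the NCOR list was at Ncor1, with a control mean of 60.1.

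Hjurp had the most members, with 4, and Sfi1 had 3. Of the Hjurp members, that over the start had 160.4, 142.1 and 209.4 normalized tags in dKO and 185.1, 190.3 and 194.2 in control (log2 fold change -0.11, SE 0.11) and was called lower under quantile normalization only (-0.41). The 2 inside the gene were at 0.09 and -0.25 and were not called. Whether these differ from the member at 88288205 was not tested. The other Sfi1 members were at 0.25 and -0.27. The first was called higher under quantile normalization (0.39) and 3 other scalings or filters, and the second was called lower without dKO 3 (-0.37). Both members of Ifrd1, an interferon-related regulator gene, were not called (-0.26 and -0.12).

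Other measures of the peaks showed no difference between groups that passed a test, and 3 libraries against 3 cannot reach 0.05. The ranking did not use them directly, but the fold over local surroundings shares the tag count that chose the members. The test of that fold is thus not independent of the choice. The median focus ratio of the members, the share of a peak's tags placed as a point-like peak would have them, was 0.612, 0.614 and 0.621 in dKO and 0.616, 0.618 and 0.615 in control (exact permutation test over libraries, 2-sided, p = 0.9, smallest possible 0.1). The median fold over local surroundings was 17, 17.3 and 16.3 in dKO and 21.0, 16.7 and 16.5 in control (exact permutation p = 0.8). Control 1 alone was high, and without it the difference changed sign (0.258, against -1.21 with all libraries). The clonal fold, a ratio, was 0.23, 0.21 and 0.28 in dKO and 0.16, 0.24 and 0.29 in control (exact permutation p = 1.0). How it moves as tags pile up on few positions was not established here. Outside the members the clonal fold was 0.61, 0.61 and 0.71 in dKO and 0.57, 0.69 and 0.74 in control, and the focus ratio 0.671, 0.671 and 0.666 in dKO and 0.689, 0.668 and 0.664 in control. In every library the members thus had a lower clonal fold and a lower focus ratio than the rest.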

How the data were processed

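Sorted liver nuclei were profiled in 3 dKO and 3 control libraries by ATAC-seq. Per the submitters' processing notes, Trim Galore 0.6.4, Picard, SAMtools 1.10 and HOMER 4.11 were used on mm10. Not given in the sources used here are the aligner, read filters and peak options. Peaks were called per library, and each list is a deposited HOMER table of 68316 to 84614 peaks. Per the file headers it gives a normalized tag count (a signal scaled to depth by the authors, with the target depth not given), a peak score, a fold over local surroundings and a clonal fold (both ratios), and as a fraction the focus ratio. The deposited score served only as a filter in an alternative. Peak width was 108 bp in dKO 1, dKO 2 and control 1 and 166 or 172 bp in the others, and values within each width class are given beside the pooled ones; the fit itself has no width term. Since depth is unknown, no counting intervals are given.

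Regions were merged in Python 3.11.15 (pandas 2.3.3), and a region's value in a library was its highest normalized tag count. Fits were made in R 4.3.3 by limma 3.58.1, its prior variance following the mean, and fold changes on the log2(value + 1) scale understate changes of weak regions. In simulated data over 51749 regions, 57.5% of 200 regions changed by 1 on the log2 scale were called, with 4 false calls. The simulated noise was independent between regions and libraries, without the peak width classes or the library differences seen here. The false calls therefore do not give the rate in the real libraries. Each region took the name of the closest coding gene up to 50 kb away in a RefSeq table (GRCm38.p6). Promoter sequences are RefSeq's. The members and lists were chosen with earlier results of these data known. Named were the 10 strongest members, the 10 called members at each end of the fold changes with no overlap after centring, members of the 5 genes with most of them, list members and the 6 called members with groups farthest apart. A named member is not reported here, though the counts include it.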

Additional observations from a re-analysis of the deposited data

How the results depend on the processing

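Among the 1000 members 163 were called lower and 3 higher, with a median log2 fold change of -0.19. Calls lower and higher numbered 94 and 40 with quantile normalization (median -0.031), 81 and 55 with cyclic loess (-0.003), 62 and 0 without centring, 87 and 22 when weaker regions (mean under 20) were left out (-0.047), 100 and 16 with peaks above the median score (-0.071), and 101 and 55 with libraries centred on the members, which was added after seeing the data (-0.012). Over all shared regions the shares called lower and higher were 8.86% and 8.64% with quantile normalization, 8.91% and 8.35% with cyclic loess, 9.0% and 4.95% without centring, 9.49% and 9.54% with a minimum mean of 20, and 4.87% and 14.6% when centred on the members, which moved the median of all shared regions to 0.157 from -0.022. The members' share called lower was thus below that of all shared regions without centring and above it when centred on the members. With a pseudocount of 5, 1 was called higher. They were 70 and 1 for 500 members, 423 and 5 for 2000, 43 and 21 ranked by the dKO mean, and 90 and 6 ranked by the mean of all 6 libraries. Leaving out 1 library at a time gave 26 to 416 lower and 1 to 2 higher, with medians of -0.266 to -0.122. The difference in members' share of the summed normalized tag count, dKO minus control, was -0.531 percentage points, -1.09 for 2000 members and -0.0849 when ranked by the dKO mean, and -0.762 to -0.284 with 1 library left out. The share at gene ends was 67.4% with a 500 bp window, 79.8% with 2 kb and 69.8% for 2000 members. With 1 library left out, differences ran from -0.00333 to 0.00117 for the members' focus ratio, from -2.0 to 0.258 for the members' fold over local surroundings and from -0.025 to 0.04 for the members' clonal fold. In other alternatives their direction held. Equal replicate numbers did not clearly pair the libraries. Deviations from the group means correlated by 0.146, -0.0322 and 0.234 across regions for numbers 1, 2 and 3. Across members these were 0.248, -0.0139 and 0.373, while unlike numbers gave -0.349 to 0.247. With a replicate block 163 members were called lower and 2 higher, and 14.3% and 10.5% of all shared regions. Of 24 named members called, 10 kept the call in all 16 fits and 3 lost it under the replicate block. Of 32 named and not called, 17 were called in at least 1. The depth behind each value is unknown.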

Other observations

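Few strong control regions were kept out of the 1000 by a missing peak. Just 7 regions had peaks in all 3 controls, a control mean at or above that of the lowest member, and no peak in 1 or more dKO libraries. Of these, 6 had peaks in 2 dKO libraries and 1 had a peak in 1, and the missing peak was in dKO 3 at 6 of them and in dKO 2 at 2. In dKO, 205 regions outside the members entered the 1000 highest means, of which 18 were called higher and 0 lower. Of the 205 members they replaced, 120 were called lower. Over all shared regions 8.19% were called higher and 11.6% lower. Both sets of 205 regions were formed from the compared values, so these counts are a description. Most members stayed near the top in dKO, 960 of them among the 2000 highest dKO means.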
